A study of Gallus gallus with 6 samples.

Results

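The cytoplasmic ribosomal protein genes were taken as all transcript records whose description named a ribosomal protein of the L, S, LP or SA series. Descriptions with the word mitochondrial, kinase or pseudogene were left out. The rule found 55 records among the 10964 in the tables, 34 counted with the large subunit and 21 with the small subunit. The 34 include RPL7L1, a relative of RPL7, and an L33-like record that RefSeq names MRPL33, a mitochondrial ribosomal protein. The measurements were sequencing libraries of total RNA from the feather follicle of the chicken, 1 library for each of 6 groups: the dermal papilla, the mesenchymal pulp and the feather epithelium of follicles in the growth phase, the dermal papilla in the resting phase, and the feather follicle in regeneration 2 and 4 days after wounding. The dermal papilla is the mesenchymal cluster at the follicle base, and the pulp is the mesenchyme inside the growing feather. The labels used here state no strain, age or genotype. With 1 library per group no difference below has a replicate check, no test across genes was made, and intervals are exact 95% intervals that cover counting error only. The regeneration libraries carry a follicle label and the resting library a papilla label, so time after wounding and tissue cannot be told apart between them.

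The ribosome consists of a small subunit, which binds the mRNA and decodes it, and a large subunit, which joins amino acids and holds the tunnel through which the new protein leaves. Each subunit is built from ribosomal RNA and many small proteins, most of them needed in equal numbers in every ribosome. In vertebrates the mRNAs of these proteins begin with a stretch of pyrimidines, the terminal oligopyrimidine (TOP) motif, through which the growth-regulating kinase mTOR sets their translation. In mammals their genes have many processed copies and some paralogs, and counts of single records are uncertain where copies share reads. Copies in the chicken genome were not measured here.

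Library totals lay between 3269377 and 3410045 reads in the papillae and the regeneration follicles, and reached 5683214 in the pulp and 6064788 in the epithelium. The pulp and epithelium tables also had another text layout than the other 4, so the papilla against either of them also compares sets of tables. The 10 most abundant records took 28.6% of the listed reads in the epithelium and 9.56% to 16.1% elsewhere. Scaling with TMM (trimmed mean of M values) gave factors of 0.688 for the epithelium and 0.997 to 1.17 for the other 5 libraries. Below, scaled CPM means the reads per 1000000 of the library total, divided by this factor. It is not divided by transcript length, so levels are compared between libraries and not between genes. Epithelial markers summed to 727 scaled CPM in the growth papilla, 109.9 in the pulp, 1939 in the epithelium, 887 in the resting papilla, 1617 at day 2 and 1310.3 at day 4. KRT14 held 2094 of 2471 marker reads in the growth papilla, 495 of 639 in the pulp and 1996 of 8087 in the epithelium. It held 1636 of 3228 at rest, 3861 of 5941 at day 2 and 2454 of 5161 at day 4. KRT14 was 1.29-fold (1.21 to 1.37) higher in the growth papilla than in the epithelium. Of 8 tested epithelial markers, 7 were at least 2-fold lower in the growth papilla. The sums outside the epithelium therefore follow KRT14 in large part. Of the 10 epithelial markers with a record, 8 were listed in the growth papilla, without PKP1 and JUP. In the pulp 6 were listed, without CLDN1, DSP, PKP1 and JUP. PKP1 had only 3 reads and JUP 7 in the epithelium itself, so their absence from the papilla and pulp rests on low counts. Fibroblast and papilla markers summed to 153 scaled CPM in the epithelium, whereas every other library lay between 6082 and 8193. Of the 14 with a record, 12 were listed in the epithelium, without COL1A1 and PDGFRA. PDGFRA was listed only at day 4, with 2 reads, so its absence does not set the epithelium apart. Smooth muscle markers summed to 28321 scaled CPM in the growth papilla, 808 in the pulp, 276 in the epithelium, 8071 in the resting papilla, 2435 at day 2 and 2713 at day 4. Leukocyte markers summed to 1287 scaled CPM in the pulp, 26.1 in the epithelium and 260 to 452 elsewhere. Endothelial markers lay at 18.2 in the epithelium, with 5 of 9 listed there, and at 246 to 445 elsewhere. Melanocyte markers lay at 604 in the epithelium and 3.81 to 17.9 elsewhere. What part these cell types have in the ribosomal protein levels was not tested.

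Ribosomal protein records made up the smallest share of the library in the growth papilla and the largest in the epithelium. They held 4.44% (4.42% to 4.47%) of all reads in the growth papilla, 5.58% (5.57% to 5.60%) in the pulp and 8.48% (8.46% to 8.50%) in the epithelium. In the resting papilla they held 6.64% (6.61% to 6.66%), at day 2 of regeneration 6.90% (6.87% to 6.93%) and at day 4 8.09% (8.06% to 8.12%). The large subunit records took 2.73% in the growth papilla, 3.11% in the pulp, 4.84% in the epithelium, 3.91% in the resting papilla, 3.95% at day 2 and 4.75% at day 4. The small subunit records took 1.72%, 2.47%, 3.63%, 2.73%, 2.95% and 3.34% in the same order of libraries. Both subunits were lowest in the growth papilla and highest in the epithelium. For the large subunit, the order of the epithelium and day 4 depended on the rule. With the 6 ribosomal protein records that the rule missed, it took 5.51% at day 4 and 5.40% in the epithelium. In bulk libraries fewer cells of a type and less RNA per cell cannot be told apart, and the number of reads per cell is not known.

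**Figure D1:**
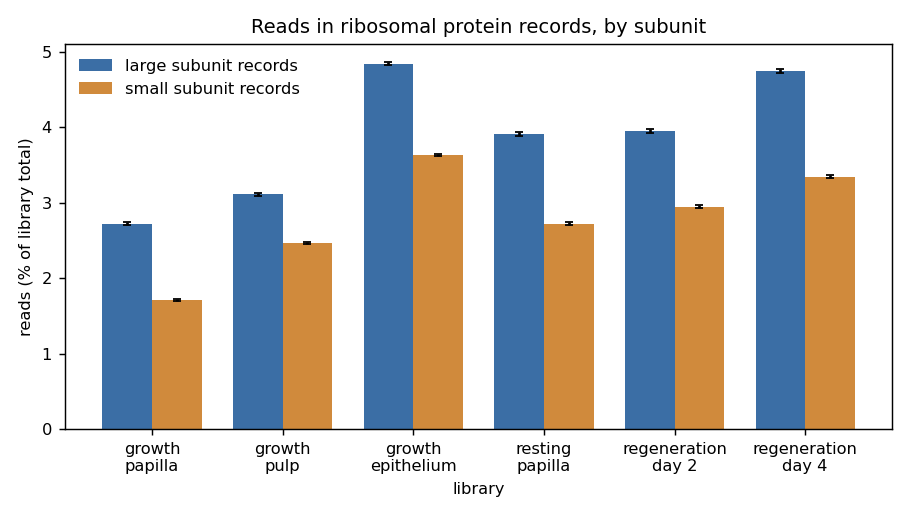
Reads in ribosomal protein records as a percentage of the library total (vertical axis) in each of the 6 libraries, with large subunit records in blue and small subunit records in orange and exact 95% intervals for counting error. The growth papilla has the lowest bars, 2.73% and 1.72%, and the epithelium the highest, 4.84% and 3.63%.

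For each read in a small subunit record there were 1.59 reads in large subunit records in the growth papilla, 1.26 in the pulp and 1.33 in the epithelium. The ratio was 1.44 in the resting papilla, 1.34 at day 2 and 1.42 at day 4. RPLP1 and RPLP2, the acidic proteins of the stalk that recruits elongation factors, were counted in the large subunit. Without them the ratio was 1.06 in the growth papilla, 0.829 in the pulp, 1.005 in the epithelium, 1.04 in the resting papilla, 0.968 at day 2 and 1.04 at day 4. RPLP1 alone held 13.6% of all ribosomal protein reads in the growth papilla, 11.4% in the pulp and 9.68% in the epithelium. In the resting papilla it held 12.0%, at day 2 10.7% and at day 4 11.7%. Its level was 6049 scaled CPM in the growth papilla, 6209 in the pulp, 11937 in the epithelium, 7341 in the resting papilla, 6598 at day 2 and 8094 at day 4. RPLP1 was thus highest in the epithelium after TMM scaling, and the other 5 libraries lay close together. As a share of the library total it was highest at day 4. It had 31880 of 3371066 reads at day 4 and 49793 of 6064788 in the epithelium.

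Of the 55 records, 50 were listed in every table and 45 had at least 200 reads in every library, 27 of the large and 18 of the small subunit. The other 10 stayed under 200 reads in every library. RPL3, RPL9, RPL11, RPS7 and RPS13 were among them, with 6 to 111 reads per library. RPL11 together with RPL5 binds MDM2 and so restrains it in mammals. RPL11 had 27 reads in the growth papilla, 49 in the pulp, 111 in the epithelium, 26 in the resting papilla, 53 at day 2 and 58 at day 4, while RPL5 had 2840 to 7490. The remaining 5 stayed under 20 reads in every library: RPL30, RPL6, RPL3L, a record described as similar to RPL30 and a second transcript variant of RPS7. RPL3L is a muscle paralog of RPL3 in mammals, and it was listed only in the pulp, with 2 reads. Whether low counts reflect low expression or the loss of reads shared with copies was not tested.

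Several records have a relative under the same rule. RPS27L, a paralog of RPS27, had 762 scaled CPM in the growth papilla, 1573 in the pulp, 2489 in the epithelium, 1035 in the resting papilla, 1315 at day 2 and 1530.4 at day 4. These levels were of the size of other small subunit records, and a separate RPS27 record was not among the 55, so RPS27 reads in this record cannot be told apart from its own. RPL7L1, a relative of RPL7 that takes part in ribosome assembly, had 82.7 scaled CPM in the growth papilla, 129 in the pulp, 72.2 in the epithelium, 62.4 in the resting papilla, 68.0 at day 2 and 94.2 at day 4. The record described as L33-like is named MRPL33, a mitochondrial ribosomal protein, in the RefSeq gene table. It had 122 scaled CPM in the growth papilla, 304 in the pulp, 94.7 in the epithelium, 112 in the resting papilla, 172 at day 2 and 186 at day 4. The RPL39 record carries the name RPL39L, and the RPS4 record the name RPS4Y1, in the same table. Sequences of these copies were not analysed here.

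Among the 45 well-read records, 34 had their highest level in the epithelium, 22 had their lowest in the growth papilla and 15 had their lowest in the pulp. No record was highest in the growth papilla. In the epithelium 43 of the 45 exceeded the growth papilla, 40 exceeded the pulp and 40 exceeded the day 4 follicle. With the deposited per-million values in place of TMM scaling, 20 of the 45 were highest in the epithelium, and the epithelium exceeded the growth papilla in 38, the pulp in 36 and the day 4 follicle in 23. The count lowest in the growth papilla was 22 on both scales. The order of the epithelium against the growth papilla and pulp therefore held for most of the 45 records on both scales. Its order against the day 4 follicle did not. These orders were not counted over all records, so whether they are particular to ribosomal protein records was not tested.

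**Figure D2:**
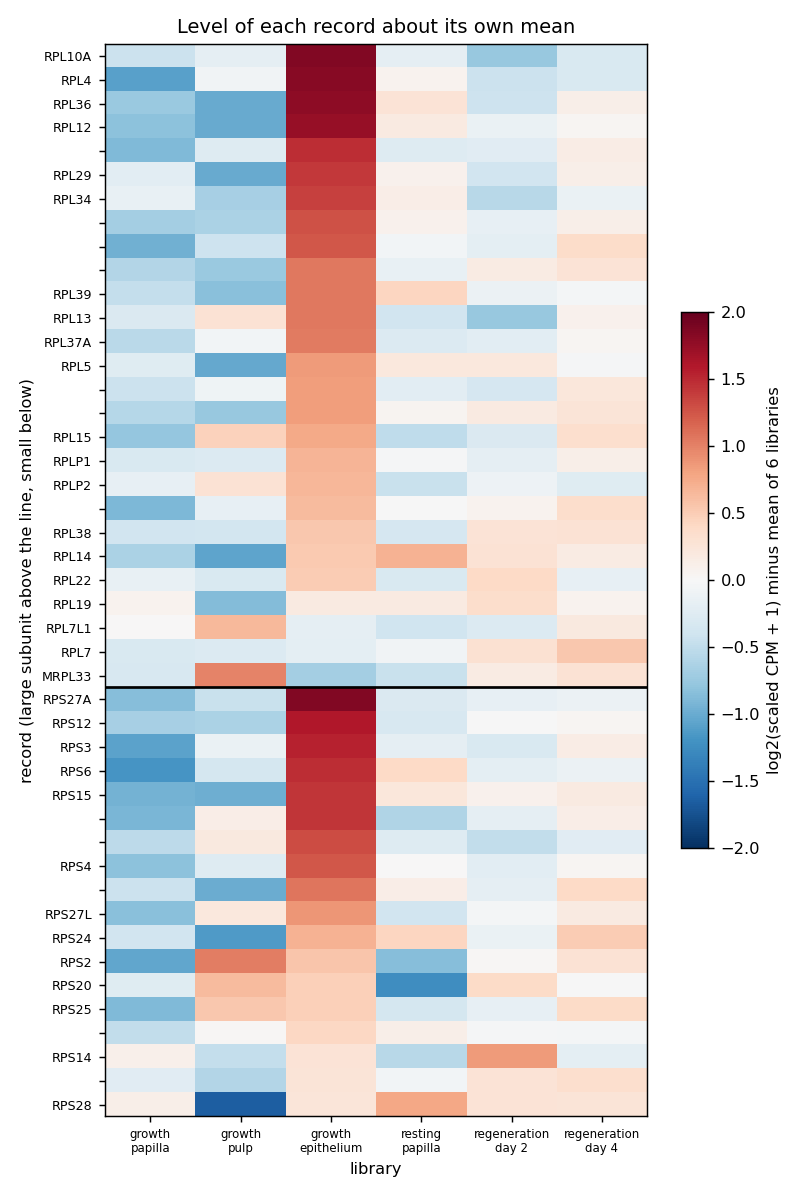
Level of the 45 records with at least 200 reads in every library, as log2(scaled CPM + 1) minus the record's own mean over the 6 libraries (colour), with large subunit records above the black line and small subunit records below it; rows are labelled for records described in the text. The epithelium column is the highest for 34 of the 45 records and the growth papilla column the lowest for 22.

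The growth papilla was first compared with the growth epithelium. Log2 ratios used scaled CPM plus 1 among records with at least 20 reads in either library, and a record was called at 2-fold. Of the 50 ribosomal protein records tested, 34 fell at least 2-fold below the epithelium in the growth papilla and 0 lay 2-fold above, against 22.7% of all 6362 tested records lower and 25.0% higher. The median log2 ratio was -1.51 over the ribosomal protein records and -0.05 over all records. The large subunit had 20 of 30 records lower (median -1.46) and the small subunit 14 of 20 (median -1.55), so the subunits had nearly the same median. The summed ribosomal protein reads were 2.76-fold (2.75 to 2.78) lower in the papilla after scaling and 1.91-fold lower as a share of the library total. By sum the subunits differed more, with the large 2.58-fold (2.56 to 2.60) and the small 3.06-fold (3.04 to 3.09) lower after scaling.

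The lowest large subunit ratios belonged to RPL4, RPL12 and RPL36. RPL4, whose extension lines the exit tunnel, had 292 scaled CPM in the growth papilla, 589 in the pulp, 2199 in the epithelium, 654 in the resting papilla, 459.7 at day 2 and 503 at day 4. Its level in the papilla was 7.54-fold (7.06 to 8.06) lower than in the epithelium, and the epithelium stood apart from all other libraries. RPL12, at the base of the stalk, had 318 scaled CPM in the growth papilla, 280.4 in the pulp, 1887 in the epithelium, 636 in the resting papilla, 511 at day 2 and 575 at day 4, and was 5.94-fold (5.57 to 6.33) lower in the growth papilla than in the epithelium. RPL36 had 735 scaled CPM in the growth papilla, 614 in the pulp, 4268 in the epithelium, 1492 in the resting papilla, 925 at day 2 and 1341 at day 4. Its papilla level was 5.81-fold (5.57 to 6.06) below the epithelium.

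In the small subunit RPS27A, RPS6 and RPS3 had the lowest ratios. RPS27A is made as a fusion with ubiquitin. It had 503 scaled CPM in the growth papilla, 667 in the pulp, 3262 in the epithelium, 744 in the resting papilla, 810.3 at day 2 and 832 at day 4, and was 6.49-fold (6.17 to 6.83) lower in the growth papilla than in the epithelium. RPS6, the substrate of the S6 kinases downstream of mTOR, had 1311 scaled CPM in the growth papilla, 2325 in the pulp, 8294 in the epithelium, 3912 in the resting papilla, 2591 at day 2 and 2743 at day 4. It was 6.33-fold (6.13 to 6.53) lower in the growth papilla than in the epithelium. RPS3, which lies at the mRNA entry channel, was 6.13-fold (5.81 to 6.47) lower, with 457 scaled CPM in the papilla against 2802 in the epithelium.

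Not all records followed. RPL7 had 1635 scaled CPM in the growth papilla and 1771 in the epithelium, RPL19 1221 in the papilla and 1309.7 in the epithelium, and RPS14 993 in the papilla and 1114 in the epithelium. RPS28 had 981 scaled CPM in the papilla and 1073 in the epithelium. After TMM scaling their papilla levels were lower by 1.08-fold (1.05 to 1.12), 1.07-fold (1.03 to 1.12), 1.12-fold (1.07 to 1.17) and 1.09-fold (1.05 to 1.14). The direction depended on the scaling: as a share of the library total, each of these records was higher in the papilla. RPL7, for example, had 5558 of 3410045 reads in the papilla and 7387 of 6064788 in the epithelium. With the deposited per-million values, which moved the median of all records to 0.45, 21 of the 50 ribosomal protein records were at least 2-fold lower and their median was -0.97. Among all called records, 72.2% were then higher in the papilla, against 52.4% with TMM scaling. On either scale the ribosomal protein median lay below that of all records, by 1.43 with the deposited values and by 1.46 with TMM. Another scaling shifts all log2 ratios of a comparison by nearly the same amount. This difference was therefore bound to hold on both scales and says nothing about robustness.

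**Figure D3:**
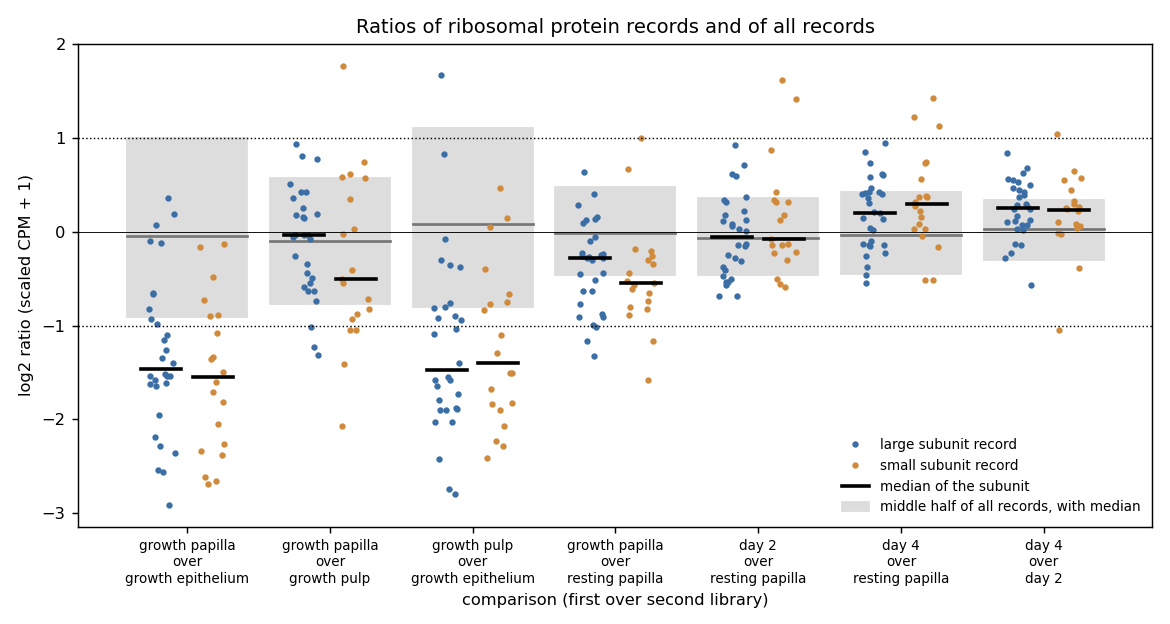
Log2 ratio of scaled CPM plus 1 (vertical axis) for each tested ribosomal protein record in the 7 comparisons, large subunit in blue and small subunit in orange, with black bars at subunit medians and grey boxes for the middle 50% of all tested records with their median. The points lie mostly below the grey median in both comparisons with the epithelium (medians -1.51 and -1.45) and around it for papilla over pulp (-0.07).

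The pulp against the epithelium set side by side libraries of the same table layout. Of 50 ribosomal protein records, 30 were at least 2-fold lower in the pulp and 1 higher, against 20.4% of all records lower and 26.7% higher. Over the ribosomal protein records the median log2 ratio was -1.45, beside 0.08 over all records. The large subunit had 18 of 30 lower (median -1.47) and the small subunit 12 of 20 (median -1.39). The higher record was the L33-like one, at 3.21-fold (2.88 to 3.59). RPL36 was 6.95-fold (6.71 to 7.21) lower in the pulp, RPL12 6.73-fold (6.38 to 7.10) and RPL29 5.37-fold (5.20 to 5.55). In the small subunit RPS15, needed for export of the pre-subunit from the nucleus, was 5.33-fold (5.11 to 5.56) lower, RPS27A 4.89-fold (4.72 to 5.07) and RPS12 4.71-fold (4.60 to 4.83).

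RPS2, RPS20 and RPS25 did not share this difference. RPS2, which lies at the mRNA entry channel, had 790.0 scaled CPM in the growth papilla, 3314 in the pulp, 2402 in the epithelium, 907 in the resting papilla, 1662 at day 2 and 1987 at day 4. It was highest in the pulp, 1.38-fold (1.35 to 1.41) above the epithelium. RPS20 was 1.11-fold (1.08 to 1.14) higher in the pulp than in the epithelium, and RPS25, needed in mammals and yeast for initiation at some internal ribosome entry sites, 1.04-fold (1.01 to 1.07). With the deposited values the median over all records was 0.61 and that of the ribosomal protein records -0.91. The share of called records that were higher in the pulp became 77.5%, against 56.7% with TMM.

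The growth papilla was next compared with the growth pulp, both of them mesenchyme. Summed ribosomal protein reads were 1.22-fold (1.22 to 1.23) lower in the growth papilla, with the large subunit 1.11-fold (1.10 to 1.12) and the small subunit 1.40-fold (1.39 to 1.42) lower. Of 48 tested, 1 had a growth papilla level 2-fold or more above the pulp and 7 a level 2-fold or more below, against 14.7% of all records higher and 19.1% lower. The median log2 ratio was -0.07, beside -0.09 over all records. The large subunit had 3 of 29 lower and 0 higher (median -0.04) and the small subunit 4 of 19 lower and 1 higher (median -0.51). Single records differed well beyond counting error in both directions. RPS28, which lies near the mRNA exit channel, had 981 scaled CPM in the growth papilla, 287 in the pulp, 1073 in the epithelium, 1543 in the resting papilla, 1089 at day 2 and 1077 at day 4. It was 3.42-fold (3.22 to 3.63) higher in the growth papilla than in the pulp, and the pulp lay below all other libraries.

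Among the 7 below the pulp in the growth papilla were RPS2 by 4.19-fold (4.03 to 4.37), RPS25 by 2.66-fold (2.55 to 2.78), RPL15 by 2.35-fold (2.27 to 2.43), RPS27L by 2.06-fold (1.98 to 2.16), RPL4 by 2.02-fold (1.88 to 2.17) and the L33-like record by 2.50-fold (2.24 to 2.78). RPL15, a large subunit protein mutated in some patients with Diamond-Blackfan anaemia, had 1181 scaled CPM in the growth papilla, 2774 in the pulp, 3421 in the epithelium, 1415 in the resting papilla, 1655 at day 2 and 2555 at day 4. RPS25 had 774 scaled CPM in the growth papilla, 2059 in the pulp, 1986 in the epithelium, 1117 in the resting papilla, 1263 at day 2 and 1855 at day 4. Both were lowest in the growth papilla. The highest large subunit ratios, all under 2-fold, were 1.92-fold (1.84 to 2.01) for RPL19, 1.75-fold (1.68 to 1.82) for RPL29 and 1.71-fold (1.63 to 1.81) for RPL5. Epithelial markers were 2-fold or more higher in the growth papilla in 5 of 6 tested and smooth muscle markers in 8 of 8, while leukocyte markers were lower in 6 of 7. Their part in these ratios was not tested.

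The papilla was then compared between phases, growth against rest, in libraries of the same layout and nearly equal depth. Of 49 ribosomal protein records, 5 were at least 2-fold lower and 0 higher in the growth papilla, against 7.97% of all records lower and 9.35% higher, so the share called was near the background. Over the ribosomal protein records the median log2 ratio was -0.44, beside -0.02 over all records. Of the 49, 40 lay below 0, against 3015 of all 5957 tested records. The large subunit median was -0.28 and the small subunit median -0.55. In sum the ribosomal protein reads were 1.37-fold (1.36 to 1.38) lower in the growth papilla, 1.32-fold (1.31 to 1.33) in the large and 1.45-fold (1.44 to 1.47) in the small subunit.

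The 5 lower records were RPS6 by 2.98-fold (2.88 to 3.09), RPL14 by 2.51-fold (2.40 to 2.64), RPS15 by 2.25-fold (2.12 to 2.38), RPL4 by 2.24-fold (2.08 to 2.42) and RPL36 by 2.03-fold (1.94 to 2.13). RPL14 had 693 scaled CPM in the growth papilla, 515 in the pulp, 1540.3 in the epithelium, 1742 in the resting papilla, 1312 at day 2 and 1197 at day 4, and was highest in the resting papilla. RPS20 went the other way: it was 2.00-fold (1.90 to 2.10) higher in the growth papilla, with a log2 ratio of 0.997, just under the threshold, and it was called with median-of-ratios scaling. RPS14 was 1.59-fold (1.51 to 1.68) higher in the growth papilla. With the deposited values 10 records were lower, the ribosomal protein median was -0.56, and 41.4% of called records were higher in the growth papilla, against 54.0% with TMM. Epithelial markers were at least 2-fold lower in the growth papilla in 6 of 7 tested and smooth muscle markers higher in 7 of 8. The haemoglobin gene HBA1 was 8.29-fold (6.02 to 11.7) higher. Their part in the ribosomal protein ratios was not tested.

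In regeneration the ribosomal protein records were set against the resting papilla. At day 2, 2 of 49 were at least 2-fold higher and 0 lower, against 7.03% of all records higher and 6.0% lower. The median log2 ratio was -0.08, beside -0.06 over all records, and the summed level differed by a ratio of 1.005 (0.999 to 1.01). Both higher records were of the small subunit. RPS20 had 639 scaled CPM in the resting papilla, 1961 at day 2 and 1498 at day 4, and was 3.07-fold (2.93 to 3.22) higher at day 2 than at rest. In the growth phase it had 1276 scaled CPM in the papilla, 2337 in the pulp and 2109 in the epithelium, so the resting papilla held its lowest level. RPS14, a small subunit protein whose partial loss is tied to a form of myelodysplastic anaemia in humans, had 625 scaled CPM in the resting papilla, 1669 at day 2 and 809 at day 4. It was 2.67-fold (2.54 to 2.80) higher at day 2 than at rest, and day 2 held its highest level of all 6 libraries.

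Other records moved by less at day 2. RPS2 was 1.83-fold (1.76 to 1.91) higher than at rest, RPL22 1.64-fold (1.51 to 1.78) and RPL38 1.52-fold (1.46 to 1.57). RPL38 is known in the mouse for its part in the translation of Hox mRNAs. RPL36 was 1.61-fold (1.55 to 1.68) lower, RPL34 1.61-fold (1.49 to 1.74), RPS6 1.51-fold (1.47 to 1.55) and RPL10A 1.49-fold (1.39 to 1.59). Of the 49 records, 24 had ratios above 0 and 25 below, against 2738 above and 3275 below among all 6013 tested records.

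At day 4 against rest, 3 of 50 records lay at least 2-fold above rest and 0 below, against 8.23% of all records higher and 6.9% lower. Over the ribosomal protein records the median log2 ratio was 0.25, beside -0.03 over all records. Of the 50, 36 lay above 0, against 2936 of all 6090 tested records. The large subunit median was 0.20 and the small subunit median 0.30. In sum the ribosomal protein reads were 1.13-fold (1.13 to 1.14) higher at day 4. The 3 records were RPS20 at 2.35-fold (2.24 to 2.46), RPS2 at 2.19-fold (2.10 to 2.28) and RPS13, which rested on 33 reads at day 4 and 9 at rest (3.39-fold, 1.59 to 8.05). RPL15 was 1.81-fold (1.75 to 1.87) higher, while RPL14 was 1.46-fold (1.40 to 1.51) lower, RPS6 1.43-fold (1.39 to 1.46) and RPS28 1.43-fold (1.38 to 1.49). With the deposited values the median over all records was 0.07 and that of the ribosomal protein records 0.35, and 64.5% of called records were higher at day 4, against 54.4% with TMM. Against rest, smooth muscle markers were at least 2-fold lower in 6 of 8 tested at day 2 and in 5 of 8 at day 4, and leukocyte markers higher in 4 of 5 at day 2 and in 5 of 6 at day 4. Epithelial markers were at least 2-fold higher than at rest in 3 of 8 tested at day 2 and in 2 of 7 at day 4. At either time 0 were at least 2-fold lower. Under that threshold they went both ways. At day 2 CDH1 was 1.80-fold (1.45 to 2.22) lower than at rest and DSG2 1.93-fold (1.48 to 2.54) higher. HBA1 was 12.4-fold (9.09 to 17.4) higher at day 2 than at rest and 12.4-fold (9.07 to 17.3) higher at day 4. Their part in the ribosomal protein ratios was not tested.

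Day 4 against day 2 joined the libraries with the fewest called records. Of 50 ribosomal protein records, 1 was at least 2-fold higher and 1 lower at day 4, against 3.77% of all records higher and 3.84% lower. The median log2 ratio was 0.24, beside 0.03 over all records, and 41 of the 50 were above 0, against 3185 of all 6048. RPS14 was the lower one, by 2.06-fold (1.98 to 2.15), and RPS13 the higher, with 33 reads at day 4 and 13 at day 2. RPL13 was 1.79-fold (1.66 to 1.94) higher at day 4, RPS24 1.57-fold (1.51 to 1.62) and RPL15 1.54-fold (1.495 to 1.59). RPL22 was 1.48-fold (1.37 to 1.60) lower at day 4 and RPS20 1.31-fold (1.26 to 1.35). Of the 45 well-read records, 17 were lowest at rest, higher at day 2 and higher still at day 4, and 3 ran in the opposite order. These orders were not counted over all records. The 3 comparisons among rest, day 2 and day 4 share libraries and are not independent of each other.

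The spread of single records over the 6 libraries was wide. It was 7.52-fold for RPL4, 6.94-fold for RPL36, 6.71-fold for RPL12, 6.48-fold for RPS27A and 6.32-fold for RPS6, as the ratio of the highest to the lowest scaled CPM plus 1, and all of these had their highest level in the epithelium. Among the 5 narrowest spreads were 1.77-fold for RPL22, 1.80-fold for RPL7 and 1.90-fold for RPL38. These spreads depend on the scaling. As a share of all ribosomal protein reads, RPL7 ranged 2.96-fold, RPL22 1.86-fold and RPL38 1.66-fold. RPL7 had 1635 scaled CPM in the growth papilla, 1675 in the pulp, 1771 in the epithelium, 1931 in the resting papilla, 2491 at day 2 and 2948 at day 4. RPL22 had 302, 272, 479, 270.4, 443 and 299 scaled CPM in the same order of libraries.

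The share of a record in all ribosomal protein reads does not depend on how libraries are scaled. By this measure RPL37A varied least, with a 1.31-fold range, and the L33-like record most, with a 7.25-fold range. RPS28 ranged 4.81-fold, RPS20 4.10-fold, RPS2 4.09-fold and RPL7L1 4.04-fold. RPS20 held 2.86% of ribosomal protein reads in the growth papilla, 4.28% in the pulp, 1.71% in the epithelium, 1.05% in the resting papilla, 3.19% at day 2 and 2.16% at day 4. RPS2 held 1.77% in the growth papilla, 6.07% in the pulp, 1.95% in the epithelium, 1.48% in the resting papilla, 2.71% at day 2 and 2.87% at day 4, and so stood apart in the pulp. RPS14 held 2.23% in the growth papilla, 1.22% in the pulp, 0.904% in the epithelium, 1.02% in the resting papilla, 2.72% at day 2 and 1.17% at day 4. RPL7 held 3.67% in the growth papilla, 3.07% in the pulp and 1.44% in the epithelium, against 3.16% in the resting papilla, 4.06% at day 2 and 4.26% at day 4. RPL4 held 0.654% in the growth papilla, 1.08% in the pulp and 1.78% in the epithelium, with 1.07% in the resting papilla, 0.749% at day 2 and 0.726% at day 4. The makeup of the ribosomal protein reads thus differed between libraries by more than counting error in these records.

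**Figure D4:**
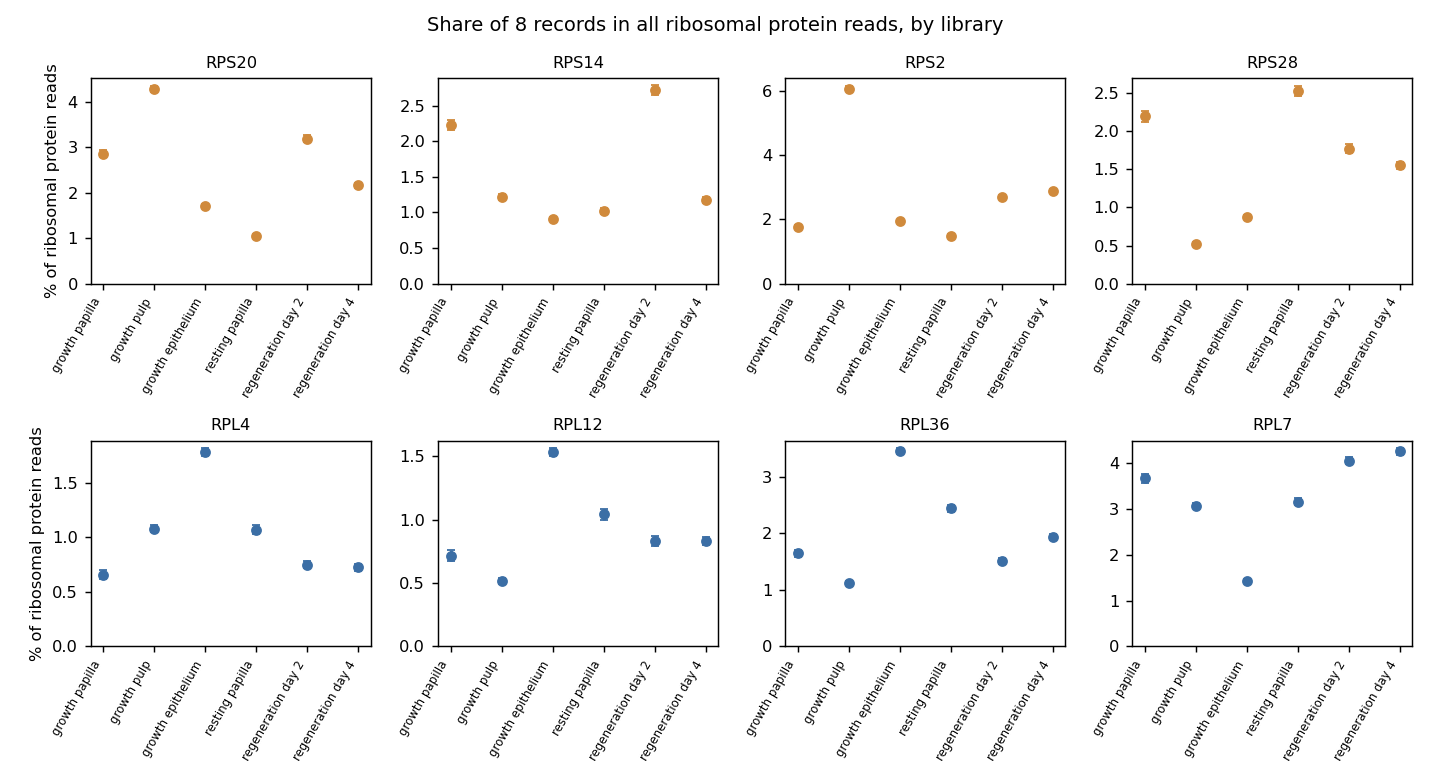
Share of 8 records in all ribosomal protein reads (vertical axis, percent, from 0) in each library, with exact 95% intervals for counting error that are mostly smaller than the points; small subunit records are orange and large subunit records blue. RPS20 is lowest in the resting papilla (1.05%), RPS14 highest at day 2 (2.72%), RPS2 highest in the pulp (6.07%) and RPL7 lowest in the epithelium (1.44%).

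Other parts of the translation machinery were counted from lists of genes. Ribosome biogenesis genes encode the factors that process ribosomal RNA and assemble the subunits. Of 28 tested, 13 were at least 2-fold lower and 0 higher in the growth papilla than in the epithelium (median log2 ratio -0.98), against 22.7% of all records lower and 25.0% higher. NIP7 was 6.07-fold (4.55 to 8.25) lower and RRP9, which works in ribosomal RNA processing, 5.12-fold (3.69 to 7.27). In the pulp against the epithelium 11 of 28 were lower and 0 higher (median -0.89), against 20.4% of all records lower and 26.7% higher, with UTP15 at 7.43-fold (5.63 to 9.97) lower and DKC1, the pseudouridine synthase dyskerin, at 6.02-fold (4.91 to 7.42). The growth papilla had 4 of 25 lower and 0 higher than the resting papilla (median -0.32), against 7.97% of all records lower. Day 4 had 2 of 24 higher and 0 lower than day 2 (median 0.25), against 3.77% of all records higher. The 2 were WDR12 at 3.04-fold (2.06 to 4.57) and WDR43 at 2.19-fold (1.32 to 3.74).

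Translation initiation factors had 4 of 14 lower in the growth papilla than in the epithelium (median -0.90) and 9 of 14 lower in the pulp than in the epithelium (median -1.09), with 0 higher in either. Beside the 22.7% and 20.4% of all records lower in these comparisons, the first share lower was near the background. Of all records 25.0% and 26.7% were higher, and their medians were -0.05 and 0.08. EIF3D was 2.76-fold (2.48 to 3.08) lower in the papilla and the cap-binding protein EIF4E 2.72-fold (2.42 to 3.07). Of the other mRNAs known to carry a TOP motif in mammals, 6 of 10 were lower in the growth papilla than in the epithelium (median -1.16) and 6 of 10 in the pulp (median -1.03), with 0 higher in either, beside the same background shares. EIF3F and EIF2S3 are also in the initiation list, EEF2 and EEF1A1 in the elongation list and NPM1 in the biogenesis list. The counts of these lists are therefore not independent. NPM1 rested on 6 reads in the growth papilla and 23 in the epithelium. TPT1 was 2.99-fold (2.93 to 3.06) lower in the growth papilla than in the epithelium and 2.24-fold (2.19 to 2.29) lower than at rest. The elongation list was chosen by gene symbol, and 3 of its genes were tested. EEF1E1, a component of the tRNA synthetase complex, was 4.48-fold (3.71 to 5.44) lower in the growth papilla than in the epithelium. EEF2 was 2.23-fold (2.15 to 2.31) lower in the growth papilla than in the epithelium, while EEF1A1 was 1.23-fold (1.06 to 1.44) higher. The EEF1A1 record had 332 reads in the papilla and 330 in the epithelium, against 4210 and 11529 for EEF2. Whether it lost reads to copies was not tested. In the pulp all 3 were at least 2-fold lower than in the epithelium, EEF1E1 by 5.33-fold (4.53 to 6.29), EEF2 by 2.64-fold (2.56 to 2.73) and EEF1A1 by 2.10-fold (1.77 to 2.50).

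Of 33 mitochondrial ribosomal protein records, 8 were lower and 3 higher in the growth papilla than in the epithelium (median -0.54). Of all records 22.7% were lower and 25.0% higher (median -0.05). The share lower was near that of all records, and the share higher was below it. In the pulp 10 of 33 were lower and 0 higher than in the epithelium (median -0.58), against 20.4% of all records lower and 26.7% higher (median 0.08). Between growth and resting papilla their median was 0.00, beside -0.44 for the cytoplasmic records, and the difference of the medians was not tested. RNA polymerase I transcribes ribosomal RNA, and 5 genes of the enzyme and its factors were tested: POLR1E, RRN3, TAF1A, TAF1B and TTF1. In the growth papilla 1 was higher and 0 lower than in the epithelium (median 0.37), against 25.0% of all records higher and 22.7% lower. In the pulp 1 was higher and 1 lower than in the epithelium (median -0.58), against 26.7% of all records higher and 20.4% lower. Both shares were near the background.

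Proliferation genes had 5 of 10 lower and 0 higher in the growth papilla than in the epithelium (median -1.07), against 22.7% of all records lower. In the pulp 2 of 10 were lower and 1 higher than in the epithelium (median -0.05). Of all records 20.4% were lower, near the share of this list, and 26.7% higher. At day 4 against day 2, 6 of 10 were higher and 0 lower (median 1.06), against 3.77% of all records higher, with TOP2A at 3.12-fold (1.87 to 5.44) and MKI67 at 2.86-fold (1.89 to 4.44), beside a ribosomal protein median of 0.24. Differences between these lists and the ribosomal protein records were not tested.

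**Figure D5:**
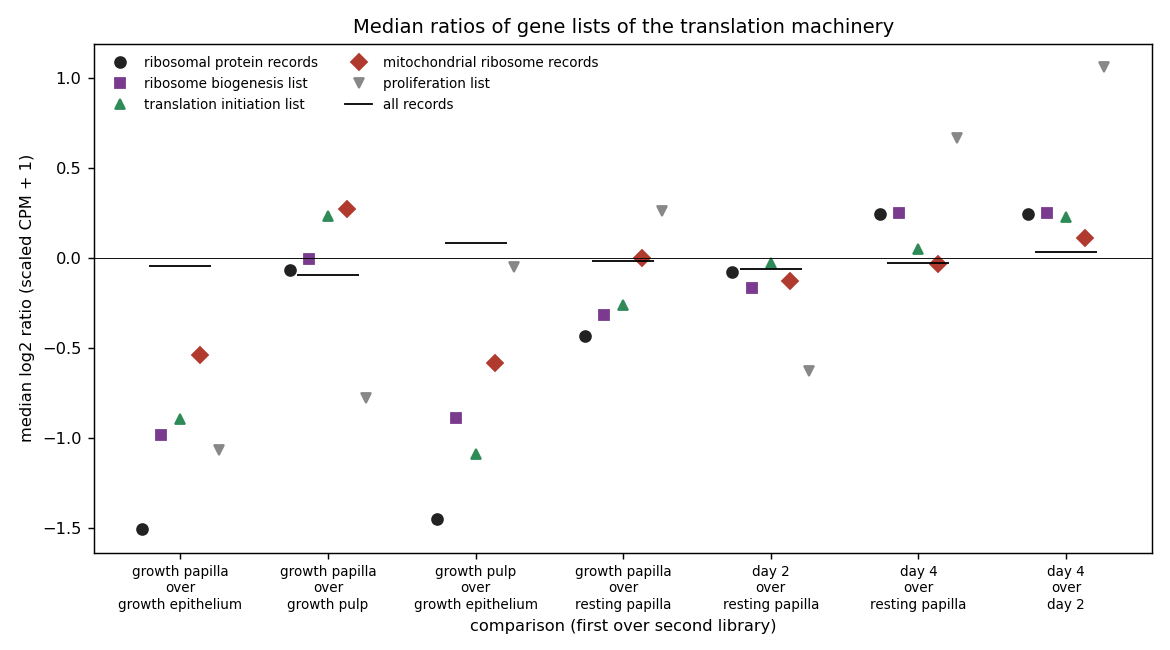
Median log2 ratio of scaled CPM plus 1 (vertical axis) in the 7 comparisons for the ribosomal protein records (black circles), 4 other lists (coloured or grey symbols) and all tested records (horizontal bars). The ribosomal protein medians are -1.51 and -1.45 in the comparisons with the epithelium, and the proliferation median is 1.06 for day 4 over day 2.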

How the data were processed

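Total RNA libraries of 6 groups, 1 library each, were grouped by their GEO labels. The authors deposited, per the file headers, a gene expression column, which holds whole-number counts per chicken RefSeq transcript record, with no count under 2 listed. The second deposited column, headed TPM, was not divided by length: its values were RPM, the count per 1000000 reads of a library total larger than the listed sum. Dividing counts by this column, over records of 500 counts or more, gave the total, of which listed counts were 40.0% to 44.5%. A record a table does not list was taken as 0. Per the submitters' processing notes the build was mm10, a mouse build. The aligner, counting method and use of strand were not given in the sources used here.

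Of 10964 records, 7058 were in every table; 4821 were named by the table, 5008 by gene identifier and 10 by accession in the RefSeq gene table of another chicken assembly, and 1125 kept no name. Of the 72 cytoplasmic ribosomal protein symbols in that table, 51 had a record among those the rule found. A further 6 records outside the rule are given under Other observations. The ribosomal protein records and the other lists were chosen with earlier results of these data known. TMM factors came from edgeR 4.0.16 (R 4.3.3) on the recovered totals over all 6 libraries. For single genes, a fold is the ratio of both scaled counts, no pseudocount added, and its 95% interval is the exact conditional binomial one of Clopper and Pearson; shares have exact binomial intervals. Reads without molecular identifiers are not independent molecules, so these intervals cover counting error only. Log2 ratios used a pseudocount of 1, at least 20 reads in either library and a 2-fold rule.

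Named by rule were, per comparison, the 3 highest and 3 lowest ratios of each subunit among records with at least 200 reads in the higher library, the 4 records of each subunit with the most reads, paralogs and like-records, the 5 widest and 5 narrowest ranges, records missing from a table, and up to 4 members of a described list. Named from these candidates were those that carry a comparison, and a few records are counted but not reported by name here. The records whose shares are given and plotted, RPL11 and RPL5 side by side, and markers absent from a table were picked with their values in view. The ratios, calls and intervals were tested on simulated data. The simulated counts held counting error only, as the intervals assume, and were not scaled with TMM. The intervals were therefore bound to hold there, and scaling and spread between birds were not tested. The counts were recomputed under 10 alternatives, and under 2 more chosen after seeing the data. Further computation used Python 3.11.15 with numpy 2.4.6, scipy 1.17.1, pandas 2.3.3 and matplotlib 3.10.9.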

Additional observations from a re-analysis of the deposited data

How the results depend on the processing

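Counts of ribosomal protein records at least 2-fold apart were recomputed under the alternatives, and 160 of 168 stayed within 1.5 times the reported count. With the deposited per-million values, 21 in place of 34 were lower in the growth papilla than in the epithelium, 3 in place of 1 were higher in the pulp than in the epithelium, 10 in place of 5 were lower in the growth papilla than at rest, and 0 in place of 1 were lower at day 4 than at day 2. With only true ribosomal subunits, 0 in place of 1 were higher in the pulp than in the epithelium, since that record was the L33-like one. With median-of-ratios scaling, 1 in place of 0 was higher in the growth papilla than at rest. At day 4 against day 2, 0 in place of 1 were higher with a pseudocount of 5 and with at least 200 reads, since the record was RPS13 with 33 reads. No called record with at least 200 reads in the higher library changed direction. The other scalings moved ratios by less than the 2-fold threshold, and a pseudocount cannot change a sign. This was therefore bound to be so and says nothing about robustness. RPS13 was not among the records checked for direction. Alternatives that leave out near-identical proteins were not run, as no protein table was used here. No library could be left out and no paired analysis was possible because each group had 1 library. Spread between birds is unknown, and low counts, as for RPS13 and RPL11, leave wide intervals on single ratios. Medians of the ribosomal protein records, single ratios and shares were also recomputed. Of these, 1439 stayed within their counting interval or, for medians, within 0.1 on the log2 scale, and 274 moved further. Shares of the listed reads have another denominator than shares of the library total. They were therefore bound to count as moved, which says nothing about robustness.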

Other observations

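A further 6 records that the description rule did not find are named as cytoplasmic ribosomal proteins in the RefSeq gene table: RPL23, RPL24, RPL27A, RPLP0, RPS10 and RPS16. They were chosen after seeing the data. RPS16 had 7755 reads in the growth papilla, 8928 in the pulp and 38306 in the epithelium, with 15931 in the resting papilla, 9511 at day 2 and 12900 at day 4. It was 4.02-fold (3.93 to 4.12) lower in the growth papilla than in the epithelium and 5.98-fold (5.84 to 6.12) lower in the pulp than in the epithelium. RPS10 was 4.22-fold (4.05 to 4.41) lower in the growth papilla than in the epithelium, 4.73-fold (4.57 to 4.90) lower in the pulp than in the epithelium and 2.24-fold (2.14 to 2.35) lower in the growth papilla than at rest. RPLP0, the core of the stalk, was 1.97-fold (1.89 to 2.04) lower in the growth papilla than in the epithelium and 1.93-fold (1.84 to 2.03) higher at day 4 than at day 2. RPL27A was 1.91-fold (1.86 to 1.96) lower, RPL24 1.75-fold (1.63 to 1.87) and RPL23 1.40-fold (1.34 to 1.46) lower in the growth papilla than in the epithelium. After TMM scaling all 6 were lower in the growth papilla than in the epithelium. As a share of the library total RPL23 was higher in the papilla, with 3079 of 3410045 reads there and 5289 of 6064788 in the epithelium.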
